A study of Homo sapiens with 4 samples.

Results

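The 10 genes described here mark epithelial identity: the keratins KRT7, KRT8, KRT18 and KRT19, the surface glycoprotein gene EPCAM, the junction genes CDH1, CLDN1, JUP and DSP, and the laminin chain gene LAMB3. They were taken by symbol, 10 of the 56303 genes with read counts, and followed over 4 RNA sequencing libraries of human bladder cancer cell lines. EJ cells transfected with the vector (EJ vector) or with the circular RNA hsa_circ_0008399 (EJ circ), and T24T cells given the vector (T24T vector) or the same circular RNA (T24T circ), gave 1 library each. The series asks which genes respond to that circular RNA. T24T was derived from the line T24, and EJ cultures are widely listed as being of T24 origin too, so the lines may be related and are not independent donors. The sample titles read T24T, while the deposited value columns of the same libraries are headed T24. The name T24T is used here. The labels do not say whether a library pools several cultures, and the level of the circular RNA itself was not analysed here.

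Keratins build intermediate filaments from obligate pairs of a type I chain, here KRT18 or KRT19, and a type II chain, here KRT7 or KRT8. Simple and glandular epithelia carry KRT8 and KRT18, and urothelium carries KRT7 and KRT19 as well. Filaments end at desmosomes, where desmoplakin (DSP) and plakoglobin (JUP) join them to desmosomal cadherins. E-cadherin (CDH1) forms the adherens junction, claudin-1 (CLDN1) seals the tight junction, EPCAM is an epithelial adhesion and signalling molecule, and LAMB3 encodes the β3 chain of laminin-332 in the basement membrane. Loss of CDH1 and EPCAM is commonly used to place carcinoma lines toward the mesenchymal end of the epithelial scale.

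Total counts ran from 14703455 in EJ circ to 18057768 in T24T circ. Genes of the mitochondrial genome took 5.40% of counts in EJ vector against 4.01% in EJ circ, and 5.05% in T24T vector against 3.08% in T24T circ. This share moved with the transfection, and its part in the results below was not tested. Of 8 urothelial markers the summed level lay between 7.48 and 8.95 CPM (counts scaled to a common library total). UPK3A was at 0 in all 4 libraries and GATA3 had at most 1 read, while UPK2 had 23 to 48 reads, FOXA1 26 to 70, PPARG 11 to 44 and UPK1A 7 to 25. Urothelial markers were thus low, with some defining ones at or near 0. Markers of other cells were close to 0: 5 leukocyte genes summed to at most 0.136, 4 endothelial genes to between 0.136 and 0.886, and 5 fibroblast genes to between 0.340 and 1.07 CPM.

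Levels between genes are compared as the deposited RPKM, read counts divided by exon length and library total. The 10 genes fell into an abundant set of 7 and a set of 3 with low values. Of these 3, KRT19 and CDH1 were at or near the detection limit in every library, and EPCAM in EJ only. KRT18 stood at 92.5 RPKM with vector and 95.4 with circ in EJ, against 188 with either in T24T. KRT7 stood at 109 and 142 RPKM in EJ vector and circ and at 88.3 and 110 in the T24T pair. LAMB3 had 44.7 and 57.0 RPKM in the EJ pair, against 202 and 218 in T24T vector and circ. By RPKM the keratins KRT7 and KRT18 were the highest of the 10 in EJ, while in T24T LAMB3 came first and KRT18 second. This order depends on the length used. RPKM divides KRT8 by 6881 bases and KRT18 by 3218, while their transcripts KRT8-205 and KRT18-202 have 1755 and 1420. With 1 library per group, the spread of a level is seen only over the vector and circ libraries of a line. By that measure CLDN1, LAMB3 and DSP overlapped in EJ, JUP stood beside KRT8 there, and KRT8, CLDN1 and KRT7 neighboured each other in T24T with overlapping values for KRT7 and CLDN1 alone.

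**Figure D1:**
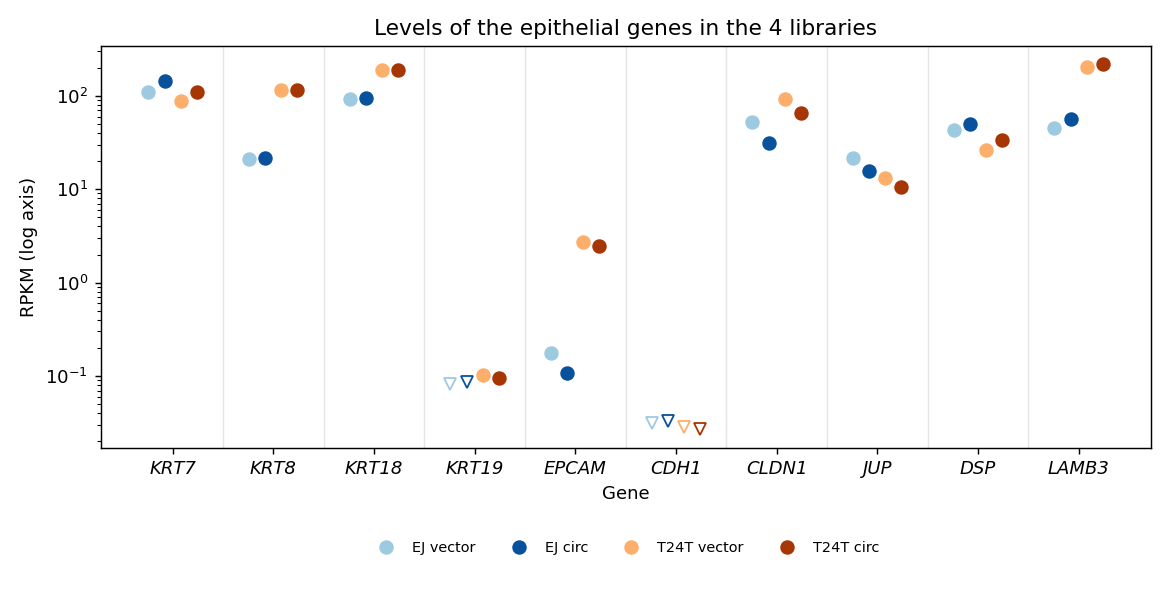
RPKM on a log axis for the 10 genes in each of the 4 libraries, with 1 point per library. Open triangles mark libraries with 3 or fewer reads and are drawn no lower than the level that 3 reads would give; 7 genes lie above 10 RPKM in every library, while KRT19 and CDH1 lie near or under that limit and EPCAM rises above 2 RPKM only in T24T.

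The least expressed genes were CDH1, KRT19 and EPCAM. CDH1 had 0 reads in both EJ libraries, and the T24T pair had 3 with vector and 1 with circ. A count of 0 allows up to 3 reads, which is 0.0311 and 0.0330 RPKM in the EJ vector and circ libraries, so E-cadherin mRNA was not detectable at this depth in EJ. KRT19, a type I keratin of urothelium, had 3, 3, 4 and 4 reads in EJ vector, EJ circ, T24T vector and T24T circ, or 0.0821 to 0.102 RPKM. Neither gene passed the minimum of 10 reads in a library and 20 over all libraries, so 8 of the 10 genes could be tested. EPCAM had 7 and 4 reads in EJ vector and circ against 117 and 111 in T24T vector and circ, or 0.178, 0.108, 2.75 and 2.44 RPKM. The lines did not overlap for EPCAM, which entered the test only because it was higher in T24T. N-cadherin (CDH2), the mesenchymal cadherin, had 1728 and 1501 reads in EJ vector and circ and 169 and 142 in T24T vector and circ (log2 fold change -3.51 ± 0.11, edgeR adjusted p = 7.03e-23). Fibronectin (FN1), a mesenchymal matrix gene, went the other way, with 2887 and 1882 reads in the EJ pair and 22587 and 12465 in T24T (2.71 ± 0.09, edgeR adjusted p = 1.22e-21). Of 5 tested mesenchymal genes that reached the count minimum in both lines, 2 were higher and 2 lower in T24T. Vimentin (VIM), the mesenchymal filament gene, stood between 113 and 142 RPKM in all 4 libraries.

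Of the keratins, KRT8 differed most between the lines. KRT8 had 2259 reads with vector and 2164 with circ in EJ, against 13405 and 14341 in T24T, or 21.0, 21.4, 116 and 115 RPKM. Every T24T library lay above every EJ library, while vector and circ nearly coincided within each line. KRT8 was 5.72-fold higher in T24T vector than in EJ vector (95% interval 5.47 to 5.98, exact binomial) and 5.67-fold higher in T24T circ than in EJ circ (5.42 to 5.94). All such intervals cover counting error only. KRT18, its type I partner, was 2.12-fold (2.05 to 2.19) and 2.07-fold higher in T24T, in the vector and the circ libraries. KRT7 went the other way and was 1.19-fold (1.15 to 1.23) and 1.23-fold (1.20 to 1.27) higher in EJ.

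The balance of the type II keratins therefore turned over between the lines. In EJ, KRT7 gave 75.6% of the KRT7 and KRT8 reads with vector (74.7% to 76.4%, exact Clopper-Pearson) and 79.8% with circ (79.1% to 80.6%). In T24T it gave 31.2% with vector (30.6% to 31.9%) and 36.1% with circ (35.5% to 36.8%). Within each line the share was higher with the circular RNA, by less than the gap between the lines. Per length, the ratio of KRT7 to KRT8 was 5.20 with vector and 6.65 with circ in EJ, against 0.764 and 0.952 in T24T. The RPKM of KRT8 divides by all its annotated exons, 6881 bases, while its GENCODE transcript KRT8-205 has 1755. For KRT18 the lengths are 3218 bases and, in KRT18-202, 1420. The choice of length thus bears on levels and ratios between genes, here and below. These ratios come from within a library and do not depend on scaling between libraries. The sum of the 4 keratins was 223 RPKM with vector and 259 with circ in EJ, against 392 and 414 in T24T. They made up 76.8% and 81.1% of the RPKM of 18 listed keratins in EJ and 88.6% and 88.5% in T24T. The ratio of KRT7 and KRT8 to KRT18 was 1.41 and 1.72 in EJ vector and circ and 1.08 and 1.20 in T24T vector and circ. These ratios leave out the other keratins. KRT80, also type II, stood at 42.6 and 39.6 RPKM in EJ vector and circ and at 24.2 and 28.9 in T24T vector and circ.

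**Figure D2:**
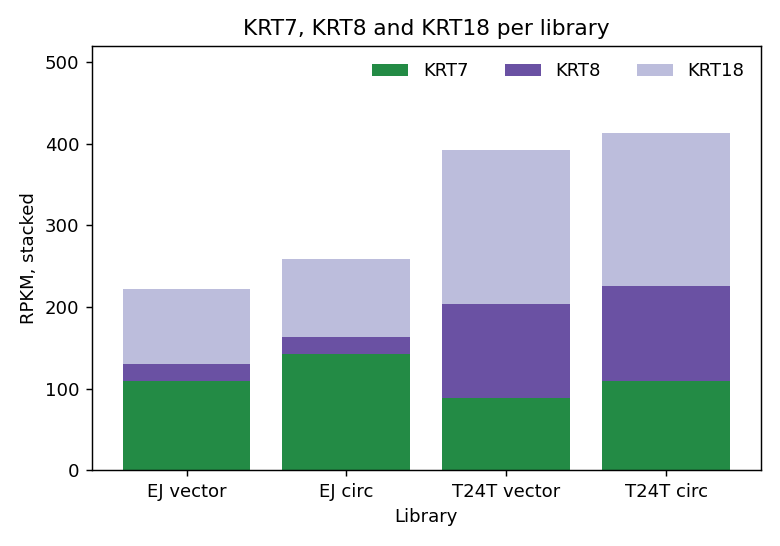
Stacked RPKM of KRT7, KRT8 and KRT18 in each library, with 1 bar per library and no error bars because each group has 1 library. KRT8 makes up 8.25% to 9.43% of the 4-keratin sum in EJ and 27.9% to 29.5% in T24T, and KRT19 is too low to be drawn.

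The exons of KRT7, KRT8 and KRT18 overlap those of other genes, so some reads may be shared. KRT8 (chromosome 12, 52897187 to 52949954, minus strand, hg38) and KRT18 (chromosome 12, 52948871 to 52952901, plus strand) overlap head to head, with 525 exonic bases in common, 7.63% of the KRT8 exons and 16.3% of those of KRT18. Whether counting used strand is not given in the sources used here, so reads in that stretch cannot be assigned with certainty. KRT7 (chromosome 12, 52232520 to 52252186, plus strand) shares 282 exonic bases with RP3-416H24.1, an opposite-strand transcript (52245048 to 52247448) with the coordinates of KRT7-AS in GENCODE release 29. That gene held 3966 and 4706 reads in EJ vector and circ and 3289 and 4371 in the T24T pair, between 53.8% and 56.8% of the KRT7 count in every library. Sense and antisense reads cannot be told apart here, and the KRT7 values carry that uncertainty.

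KRT8 and KRT18 also have many processed pseudogenes, of which the table lists 50 and 67. Reads on KRT8 copies summed to 175 with vector and 276 with circ in EJ, against 453 and 568 in T24T, or 7.75%, 12.8%, 3.38% and 3.96% of the KRT8 count. KRT18 copies summed to between 1.08% and 1.42% of the KRT18 count. Among the copies that held reads, 2 show how close the sequences are to the coding sequence of KRT8 in GENCODE release 29. KRT8P45 (chromosome 1, 157073257 to 157074703, hg38) was 95.6% identical to it over 1446 aligned bases, with a longest exact run of 114 bases. KRT8P12 (chromosome 3, 160565447 to 160569248) was 90.7% identical over 1388 bases, with a longest run of 53. KRT8P45 had 0, 3, 18 and 19 reads in EJ vector, EJ circ, T24T vector and T24T circ, higher in T24T as KRT8 was. KRT8P12 had 89, 148, 103 and 191 reads, higher with the circular RNA in each line, unlike KRT8. Even if all reads on copies belonged to KRT8, they would come to at most 12.8% of its count.

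The question of the series was then put to the 8 testable genes by setting circ against vector over both lines. The test was edgeR's quasi-likelihood test in a fit that held the line constant, with adjustment over all 17689 genes. It leaves 1 residual degree of freedom, so the standard error given after each ± rests mostly on spread pooled over genes. KRT7, DSP and LAMB3 rose, CLDN1 and JUP fell, and KRT8, KRT18 and EPCAM did not pass. That is 5 of 8, set against 12.7% of all tested genes called, 7.13% higher and 5.56% lower. DESeq2 called KRT7 and CLDN1 alone, where it called 1.89% of all genes, 1.02% higher and 0.865% lower. Without the cell-line block, or with limma on log2(RPKM + 1), no gene of the whole table passed. In bulk RNA, a lower value can mean fewer cells that express a gene or less RNA in each cell, and these cannot be told apart.

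KRT7 had 6981 reads with vector and 8566 with circ in EJ, against 6093 and 8118 in T24T. In each line the circ library was the higher one, by 1.31-fold in EJ (1.27 to 1.35) and 1.26-fold in T24T (1.22 to 1.31). The estimate over both lines was a log2 fold change of 0.37 ± 0.08 (n = 2 lines, edgeR adjusted p = 0.00214, DESeq2 adjusted p = 0.0397). The opposite-strand gene RP3-416H24.1 moved with it, at a log2 fold change of 0.34 (edgeR adjusted p = 0.00504). KRT8 had a log2 fold change of 0.03 ± 0.08 (edgeR adjusted p = 0.872) and KRT18 one of 0.04 ± 0.08 (0.822). These simple-epithelial keratins thus stayed within 1.04-fold in each line while KRT7 rose.

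CLDN1, the tight junction claudin on chromosome 3 (190305701 to 190322475, minus strand, hg38), had the largest log2 fold change of the 8 tested genes in edgeR's fit. It had 2967 reads with vector and 1685 with circ in EJ, against 5643 and 4377 in T24T, or 51.8, 31.3, 91.3 and 66.2 RPKM. The circ library was lower in each line, at 0.607 of vector in EJ (0.572 to 0.645) and 0.736 in T24T (0.708 to 0.766). Over both lines CLDN1 fell by 0.58 ± 0.09 on the log2 scale (n = 2 lines, edgeR adjusted p = 2.3e-05, DESeq2 adjusted p = 0.000417).

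JUP encodes plakoglobin, an armadillo protein of desmosomes and adherens junctions (chromosome 17, 41754604 to 41786931, minus strand, hg38). It had 1666 and 1140 reads in EJ vector and circ and 1107 and 947 in T24T vector and circ. Each circ library was the lower one, at 0.732 of vector in EJ (0.678 to 0.790) and 0.812 in T24T (0.744 to 0.886). JUP fell by 0.38 ± 0.09 (n = 2 lines, edgeR adjusted p = 0.00383), a call that DESeq2 did not make (adjusted p = 0.121).

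DSP, the desmosomal plaque protein that anchors keratin filaments (chromosome 6, 7541575 to 7586717, plus strand, hg38), moved against its partner JUP. It had 6839 and 7354 reads in EJ vector and circ and 4499 and 6140 in T24T vector and circ. The circ library was the higher one in each line, by 1.15-fold in EJ (1.11 to 1.19) and 1.30-fold in T24T (1.25 to 1.35), and all EJ values exceeded all T24T values. The log2 fold change over both lines was 0.29 ± 0.08 (n = 2 lines, edgeR adjusted p = 0.0176), not called by DESeq2 (adjusted p = 0.184).

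LAMB3 (chromosome 1, 209614870 to 209652466, minus strand, hg38) had 3322 and 3980 reads in EJ vector and circ and 16155 and 18693 in T24T vector and circ. The circ library was 1.28-fold higher in EJ (1.22 to 1.34) and 1.10-fold in T24T (1.08 to 1.12). Its log2 fold change of 0.24 ± 0.08 passed narrowly (n = 2 lines, edgeR adjusted p = 0.0459). The call was lost with scaling by library size alone (adjusted p = 0.059), with a minimum of 50 counts in each line (0.0681) and in DESeq2 (0.304).

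**Figure D3:**
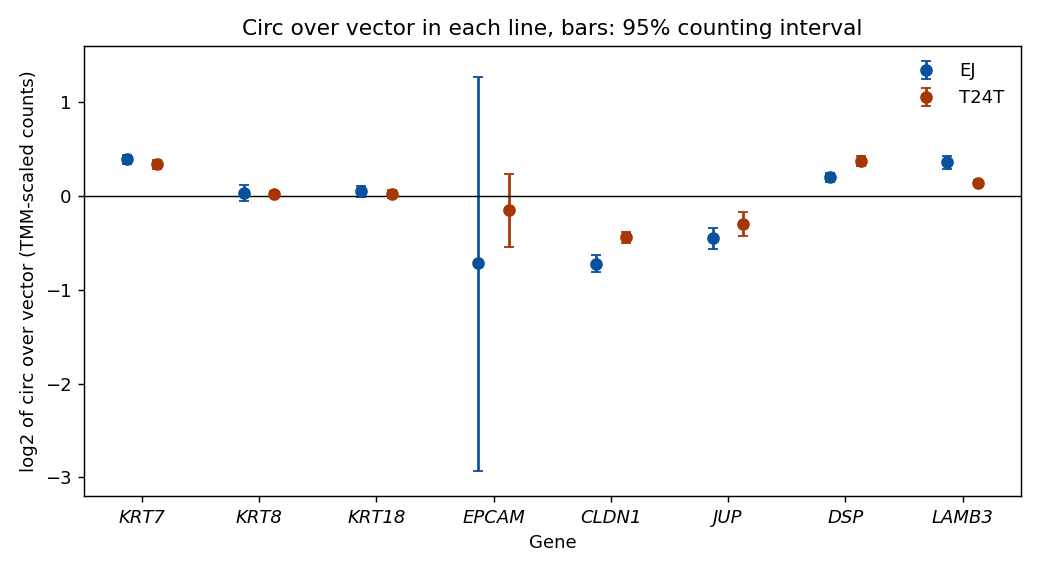
Log2 of circ over vector for the 8 tested genes in EJ and T24T, from TMM-scaled counts, with bars for the exact 95% binomial interval, which covers counting error only. KRT7, DSP and LAMB3 lie above 0 and CLDN1 and JUP below 0 in each line, KRT8 and KRT18 lie near 0, and the EJ interval of EPCAM is wide because it rests on 7 and 4 reads.

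The measured circ over vector fold differed between the lines for some genes by more than counting error. Whether the response itself differed cannot be tested, because a line-specific term leaves no residual degree of freedom. Spread between libraries of the same kind is not in the intervals below. The circ over vector fold in T24T was 1.21 times that in EJ for CLDN1 (1.13 to 1.30, exact conditional interval for counting error only), so its measured fall was the smaller in T24T. The quotient was 1.13 for DSP (1.07 to 1.19) and 0.857 for LAMB3 (0.815 to 0.902). For KRT7 it was 0.964 (0.920 to 1.01), for JUP 1.11 (0.987 to 1.25), for KRT8 0.991 (0.930 to 1.06) and for KRT18 0.980 (0.933 to 1.03). The last 4 intervals include equal folds. EPCAM gave 1.47 (0.362 to 7.04), which its EJ counts leave too wide to read.

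The upstream sequences of CLDN1, DSP and LAMB3 are printed because these genes moved in opposite directions under the same transfection. RefSeq promoters (GRCh38.p14) matched 5 of the 10 genes by symbol. Each line gives the bases before the start site that also lie outside the GENCODE gene body, 5′ to 3′ on the gene's strand. Capitals mark CACCTG or CAGGTG, an E-box that repressors of epithelial genes such as the ZEB and SNAIL factors are known to bind; each is the reverse complement of the other.
CLDN1, chr3:190322476-190322696, minus strand: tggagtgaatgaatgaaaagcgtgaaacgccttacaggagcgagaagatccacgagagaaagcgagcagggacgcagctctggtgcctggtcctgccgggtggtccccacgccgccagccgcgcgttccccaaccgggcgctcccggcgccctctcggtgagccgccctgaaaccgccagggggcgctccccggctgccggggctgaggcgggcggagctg
DSP, chr6:7541421-7541574, plus strand: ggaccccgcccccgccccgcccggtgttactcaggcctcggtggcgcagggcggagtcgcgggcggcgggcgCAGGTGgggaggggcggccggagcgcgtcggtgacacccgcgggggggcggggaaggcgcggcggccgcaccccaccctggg
LAMB3, chr1:209652467-209652675, minus strand: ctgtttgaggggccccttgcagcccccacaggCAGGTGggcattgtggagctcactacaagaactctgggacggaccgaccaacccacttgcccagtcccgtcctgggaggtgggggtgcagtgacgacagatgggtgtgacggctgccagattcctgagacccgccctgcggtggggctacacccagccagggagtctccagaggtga
In windows of 250 bases before the start, DSP held 2 such motifs, of which the printed stretch holds 1, while CLDN1 held 0. LAMB3 held 1 at its most upstream start, the one printed, and 0 at each of its other listed starts. JUP held 0 at its first listed start and 2 at its second, and the KRT8 window held 0. Of 35116 promoter windows of that length, 17.5% held at least 1. A match describes the letters and is not a measured binding site.

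The lines were then compared over both transfections with the line term of the same fit. Here 41.4% of all tested genes were called, 21.9% higher and 19.5% lower in T24T, so a call is common. Of the 7 genes that reached the count minimum in both lines, KRT8, LAMB3, KRT18 and CLDN1 were higher in T24T and JUP, DSP and KRT7 lower. DESeq2 called the same genes except KRT7 (adjusted p = 0.0503), beside 18.2% of all genes called and 8.15% called lower.

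EPCAM is given as a description, since its 7 and 4 reads in EJ lay under the count minimum and it could be tested only because T24T was high. From the counts, it was 16.1-fold higher in T24T vector than in EJ vector (7.58 to 41.0) and 23.7-fold higher in the circ libraries (9.02 to 88.7). Even so its 2.75 RPKM in T24T vector was above only 45.7% of tested genes there, while KRT18 was above 98.5%. Among the others, KRT8 had a log2 fold change of 2.51 ± 0.08 (n = 2 transfections, edgeR adjusted p = 7.48e-22) and LAMB3 at 2.12 ± 0.09 (6.07e-20). LAMB3 was 4.69-fold higher in T24T vector than in EJ vector (4.52 to 4.87) and 4.02-fold in the circ libraries (3.88 to 4.16). KRT18 had 1.07 ± 0.08 (edgeR adjusted p = 1.05e-12) and CLDN1 1.01 ± 0.09 (2.25e-11).

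The plaque genes DSP and JUP were lower in T24T. DSP had a log2 fold change of -0.57 ± 0.08 (n = 2 transfections, edgeR adjusted p = 9.27e-07) and JUP one of -0.57 ± 0.09 (3.14e-06). KRT7 had -0.28 ± 0.08 (edgeR adjusted p = 0.00587), and was lower in T24T in each transfection. The keratins KRT8 and KRT18 were thus higher in the line where DSP and JUP were lower.

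**Figure D4:**
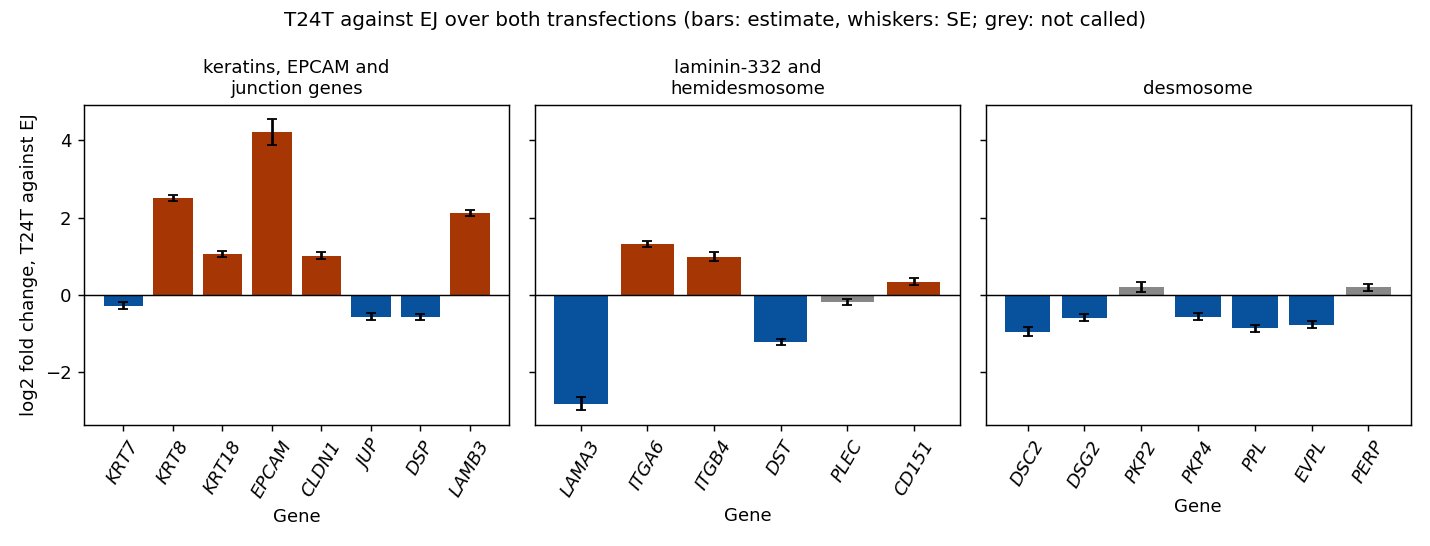
Log2 fold change of T24T against EJ over both transfections, with bars for the edgeR estimate, whiskers for its standard error, and grey for genes not called. EPCAM, KRT8, LAMB3, KRT18, CLDN1 and ITGA6 point up, and LAMA3 and the desmosomal genes except PKP2 and PERP point down; PKP3 and COL17A1, nearly without reads in EJ, are among the list genes not drawn.

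Related genes were read from lists named for their structures. Chains of laminin-332 did not all move together between the lines. LAMA3, which encodes the α3 chain beside LAMB3, had 259 and 276 in EJ against 39 and 45 in T24T, and fell by 2.81 ± 0.18 on the log2 scale (edgeR adjusted p = 8.76e-15). Per length, LAMB3 in T24T vector stood at 202 RPKM beside 0.171 for LAMA3. Of 7 hemidesmosome and laminin-332 genes that reached the count minimum in both lines, 4 were higher and 2 lower in T24T, and the eighth, COL17A1, entered the test only through T24T. ITGA6, the α6 integrin of hemidesmosomes, was higher (1.32 ± 0.08) and DST, a plakin, lower (-1.22 ± 0.09).

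Of 11 desmosome genes 8 were tested, and of the 7 that reached the count minimum in both lines 5 were lower and 0 higher in T24T. The desmosomal cadherins DSC2 (-0.95 ± 0.11) and DSG2 (-0.59 ± 0.09) and the plakins PPL (-0.87 ± 0.10) and EVPL (-0.77 ± 0.09) were lower, as JUP and DSP were. PKP3, with 2 and 1 reads in EJ and 10 and 27 in T24T, entered the test only through T24T. Of 14 tight junction genes 13 were tested, and of the 11 that reached the minimum in both lines 4 were higher and 4 lower. CLDN4 (1.65 ± 0.14) and F11R (0.79 ± 0.10) were higher with CLDN1, and occludin (OCLN, -0.80 ± 0.11) was lower. Of 14 other keratins 5 were tested, and KRT15 was higher (edgeR adjusted p = 3.86e-10) and KRT80 lower (-0.57 ± 0.09).

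Under the circular RNA 6 of the 42 tested genes of these 5 lists passed, or 14.3% against 12.7% of all tested genes, with 1 rise and 1 fall in each of 3 lists. In the desmosome list EVPL rose (0.31 ± 0.09, edgeR adjusted p = 0.0169) and PPL fell (-0.35 ± 0.10, 0.0154). The fall of PPL rests on EJ, where circ was 0.630 of vector (0.610 to 0.650) against 0.976 in T24T (0.938 to 1.02). In the tight junction list the adhesion molecule gene F11R fell (-0.40 ± 0.10, edgeR adjusted p = 0.00665) as CLDN1 did, and cingulin (CGN) rose (0.29 ± 0.09, 0.0304). In the hemidesmosome list plectin (PLEC) rose (0.52 ± 0.08, edgeR adjusted p = 1.86e-05) and the tetraspanin gene CD151 fell (-0.35 ± 0.09, 0.00793). None of 5 tested other keratins and none of 8 tested adherens junction genes passed by edgeR, with 0 of either list at an unadjusted p under 0.05, and DESeq2 called 0 of them. List medians lay between -0.13 and -0.05 on the log2 scale for these 5 lists, against 0.0018 over all tested genes. PLEC was the 1 gene of these 5 lists that DESeq2 called.

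**Figure D5:**
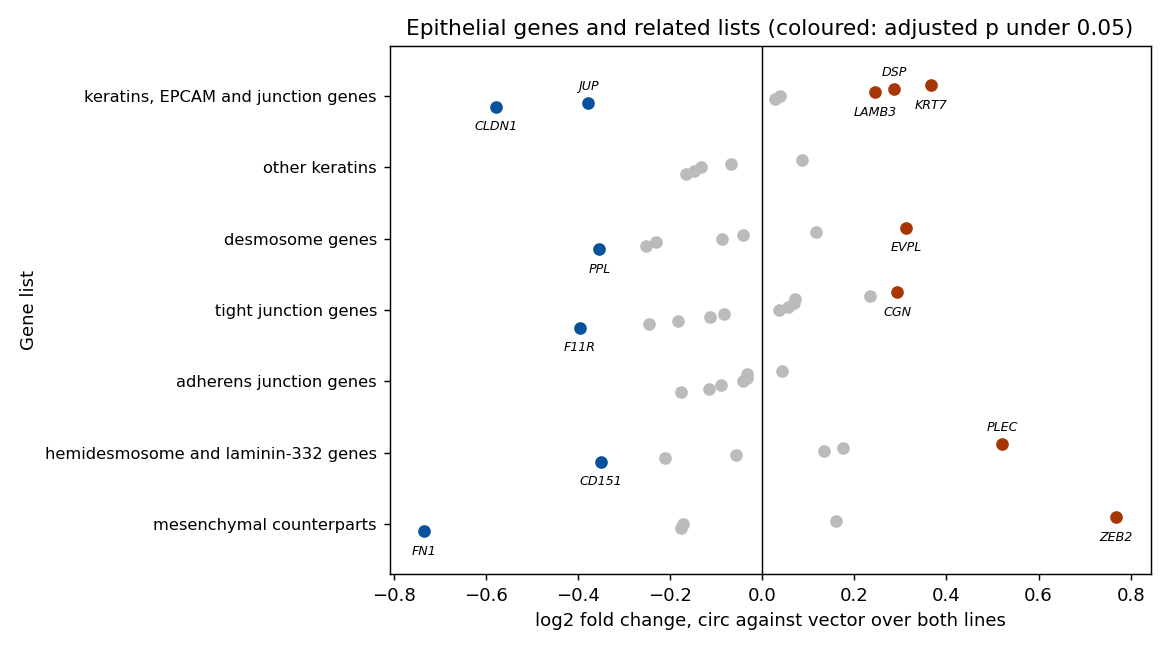
Log2 fold change of circ against vector over both lines for genes among the 10 and in 6 related lists. Each point is a tested gene that had 10 or more reads in every library, which leaves out KRT19, CDH1 and EPCAM. Coloured and named points passed edgeR's adjusted p of 0.05; rises and falls stand side by side in most lists, and no other keratin or adherens junction gene passed.

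Among the mesenchymal counterparts, fibronectin (FN1) fell (-0.73 ± 0.09, edgeR adjusted p = 7.44e-07) and ZEB2, which encodes a repressor of CDH1, rose (0.77 ± 0.20, 0.0103). DESeq2 called FN1 and gave ZEB2 no adjusted p. ZEB2 had 25 and 41 reads in EJ vector and circ and 103 and 183 in the T24T pair. VIM (-0.17 ± 0.08, edgeR adjusted p = 0.182) and CDH2 (-0.18 ± 0.10, 0.293) did not pass. CDH1 was at or under 3 reads in every library, so no response of E-cadherin could be measured.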

How the data were processed

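RNA was measured by RNA sequencing in 4 libraries, 1 per cell line and transfection. Reads went through Trimmomatic and HISAT2 on hg38, per the submitters' processing notes. The counting tool, annotation and strand setting are not given in the sources used here. The authors deposited raw read counts per gene and RPKM values, and in 100% of values the deposited RPKM equalled count over length and total within a relative tolerance of 1e-06.

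The genes and the related lists were chosen with earlier results of these data known. Genes with 10 or more counts in a library and 20 or more over all were retained, leaving 17689. TMM-scaled counts were tested with edgeR 4.0.16 (quasi-likelihood, R 4.3.3), with line and transfection in 1 fit and Benjamini-Hochberg adjustment at 0.05. The block is the cell line: vector and circ libraries of a line deviated together from the mean of their transfection (r = 0.86 over 17689 genes, which with 2 lines is a single value). The labels name no separate cultures, so p-values carry no spread beyond these 4 libraries. With 1 residual degree of freedom, edgeR's p-values rest mostly on spread pooled over genes. Folds within a line carry exact 95% binomial intervals from scipy 1.17.1. The fit was also run on simulated counts that had no difference between the lines and 1 common spread for all genes. That run does not check the cell-line block, and its outcome is not reported here.

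Named genes are the 10 genes, up to 4 per list that passed in circ against vector in order of p, and the nearest genes by profile. List genes named for the comparison of the lines follow the same order, and some others were chosen after their values were seen. Alternatives were RLE and library-size scaling, 2 other filters, DESeq2 1.42.0, limma-voom and limma 3.58.1 on log2(RPKM + 1), no block, each line alone, and prior counts. Removal of GC and length trends was added after seeing the data, with a GC value for 82.7% of tested genes. The symbol AFDN was matched to MLLT4. Values of some list genes, and sequences of KRT8 and its copies, are not reported here.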

Additional observations from a re-analysis of the deposited data

Results flagged for a closer look

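KRT80 and DSG2 moved in opposite directions in the lines, with counting intervals that leave out equal levels on each side. KRT80, a type II keratin gene, had 0.935 of its vector level in EJ circ (0.886 to 0.986) and 1.21 in T24T circ (1.14 to 1.29), a log2 difference between the lines of 0.37. DSG2, a desmosomal cadherin gene, had 0.870 in EJ circ (0.828 to 0.914) and 1.09 in T24T circ (1.03 to 1.15), a difference of 0.32. These differences were not tested, since each line has 1 library per transfection. Neither gene passed in circ against vector over both lines.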

How the results depend on the processing

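For circ against vector, the counts of 1262 genes higher and 984 lower became 181 and 153 with DESeq2. They became 0 and 0 without the replicate block for cell line (edgeR, 397 genes at an unadjusted p under 0.05) and 0 and 0 with limma on log2(RPKM + 1) (3588 unadjusted). For T24T against EJ, 3870 higher and 3445 lower became 1776 and 1441 with DESeq2 and 1944 and 1248 without the block, and limma on log2(RPKM + 1) gave 2492 higher. The other alternatives kept these counts within 1.5 times. Of the 8 tested genes, RLE scaling, limma-voom and removal of GC and length trends each gave 3 rises and 2 falls under the circular RNA and 5 higher, EPCAM among them, and 3 lower in T24T. Without the block the circ calls of KRT7, DSP, LAMB3, CLDN1 and JUP were lost (adjusted p = 1 each), as were the line calls of KRT7 (0.317) and JUP (0.0632). With limma on log2(RPKM + 1) the circ calls had adjusted p between 0.108 and 0.235. The cause was not tested. The genes called in either comparison kept their sign under the alternatives run. KRT8 and KRT18, not called for circ, had a T24T log2 ratio of 0.02 that fell to just under 0 with library size alone and with RPKM. The EPCAM difference between the lines in that ratio, 0.37, became -0.04 on log2(RPKM + 1). EPCAM has too few reads in EJ to read a response there, and KRT19 and CDH1 are too low in all libraries.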

Other observations

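Genes around EPCAM and regulators of epithelial transcription were read in both comparisons, in which 41.4% of all tested genes differed between the lines and 12.7% under the circular RNA. SPINT1, a surface protease inhibitor gene, had 7 and 12 reads in EJ vector and circ and 119 and 122 in T24T vector and circ (log2 fold change 3.51 ± 0.30, edgeR adjusted p = 1.41e-11). Of 5 tested genes of its list, 2 were higher in T24T, SPINT1 and CD9 (0.83 ± 0.08), and 1 was lower, ADAM17 (-0.25 ± 0.09). The epithelial transcription factor gene ELF3 was higher in T24T (2.27 ± 0.14, edgeR adjusted p = 1.12e-14), as was the splicing regulator gene ESRP1 (2.70 ± 0.33, 3.76e-08), from 9 and 12 reads in EJ. Of 6 tested regulators, 3 were higher and 1, GRHL1, was lower in T24T (-1.15 ± 0.25, edgeR adjusted p = 0.000395). In circ against vector 0 passed by edgeR or DESeq2, with 0 at an unadjusted edgeR p under 0.05. β-catenin (CTNNB1), the adherens junction partner of cadherins and a relative of plakoglobin, was higher in T24T (1.25 ± 0.09, edgeR adjusted p = 9.23e-14). It was the 1 higher of 8 tested adherens junction genes, and MLLT4 (-0.54 ± 0.09), CTNND1 (-0.47 ± 0.08) and VCL (-0.21 ± 0.08) were lower. In the list of EPCAM partners, PSEN2 rose (0.48 ± 0.13, edgeR adjusted p = 0.0103) and the tetraspanin gene CD9 fell (-0.29 ± 0.08, 0.0181) under the circular RNA. DESeq2 called neither (adjusted p = 0.331 and 0.194).

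Profiles over the 4 libraries were compared by the Euclidean distance of centred log2 CPM, among 11881 genes with 50 or more counts in each library. The nearest to KRT7 was LRRC59, at 0.02, with 4944, 6175, 4374 and 5804 reads in EJ vector, EJ circ, T24T vector and T24T circ. The nearest to CLDN1 was CYBRD1 (0.06), to JUP CADM4 (0.04) and to DSP CCPG1 (0.04). Among the 10 genes the closest pair was KRT7 and DSP (0.33), both higher with circ and lower in T24T, and next came KRT8 and LAMB3 (0.46). With 4 libraries such distances are descriptive.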
